A study of Mus musculus with 6 samples.

Results

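The heat shock proteins and their co-chaperones were compared between 2 nebulin genotypes in quadriceps, the extensor muscle of the thigh. RNA of 6 mice was hybridised to Affymetrix expression arrays, 1 for each animal. The members were the rows whose Entrez identifier maps to a mouse symbol of the Hspa, Hspb, Hspd, Hspe, Hsph, Hsp90, Dnaja, Dnajb, Dnajc or Bag series, or to Cryab, Unc45b, Stip1, Hsf1 or Hsf2. This gave 77 genes of 16492 gene probe sets, each with 1 probe set: 13 HSP70 genes, 1 HSP110 gene, 2 HSP90 genes, 1 chaperonin gene, 8 small heat shock protein genes, 42 DnaJ genes, 6 BAG genes and 4 folding partners and regulators. The platform annotation names 74 of them, and Hsf1, Hsp90ab1 and Dnajb5 were named from the Entrez identifier in the row name through a RefSeq gene table. The rule would also take in Dnajc13, Dnajc19, Dnajc25, Hsp90aa1, Hspb1 and Hspd1, which were not analysed here. Of the mice, 3 were nebulin +/- and carried a single allele of the gene, and 3 were nebulin +/+ with both. Every mouse is labelled as a separate animal, the animals received no treatment, and the series' title calls the heterozygous mice knock-out animals. The sources used here do not give the age, sex or strain of the mice, or the part of the gene that was deleted. Nebulin is a very large protein bound along actin filaments of the sarcomere in skeletal muscle, and the comparison asks which transcripts differ in muscle that has lost 1 copy of its gene.

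Chaperones bind unfolded or partly folded proteins and help them to reach or keep their native shape. HSP70 proteins do so in cycles of ATP hydrolysis, which DnaJ proteins (HSP40) start by delivering the client and nucleotide exchange factors, among them HSP110 and the BAG proteins, end by releasing it. HSP90 takes over clients such as kinases, steroid receptors and, with Unc45b, the myosin head, while small heat shock proteins hold unfolding proteins without using ATP. The transcription factor Hsf1 drives many of these genes when proteins misfold, and muscle, which folds large amounts of myosin and is loaded mechanically, holds several of them at high levels at rest.

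Values are signals on a log2 scale, differences are heterozygous minus wild type with their SE from limma, group means carry their SD with n = 3 mice each, and precision is limited by there being 6 arrays. Over gene probe sets, pairs of arrays within a genotype had r = 0.9965 to 0.9977 and pairs across genotypes r = 0.9932 to 0.9953. The mean signal of 8 skeletal muscle markers was 13.85 to 13.96 in heterozygous and 13.92 to 13.96 in wild-type mice. All 6 slow fibre genes listed beside them (Myh7, Tnnt1, Tnni1, Tnnc1, Myl2 and Myl3) were called higher, with mean signals of 11.55 to 11.88 against 9.32 to 10.06. Of 4 endothelial markers 1 was called lower, and the mean signal of all 4 was 8.31 to 8.42 against 8.47 to 8.54. Of 4 Schwann cell markers none was called, with mean signals of 8.57 to 9.18 against 8.24 to 8.61. None of 3 adipocyte markers measured was called, with mean signals of 9.10 to 9.81 against 8.73 to 9.24. No fibroblast, leukocyte, smooth muscle or tendon marker was called, nor was the 1 red cell marker measured of 3 listed. The part of these shifts in the chaperone values was not tested, and in whole muscle fewer cells of a type and less RNA per cell cannot be told apart.

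Calls among the chaperone genes were few, as they were over the whole array. Dnajb1, an HSP40 that brings clients to HSP70, rose by 0.45 on the log2 scale in heterozygous muscle, and Hsp90b1, the HSP90 of the endoplasmic reticulum, fell by 0.27. These were the 2 calls among 68 members bright enough to be tested (limma, adjusted p under 0.05), or 2.94%, beside 3.11% of all 11544 tested probe sets. In each direction 1 member was called, against 1.53% of all tested probe sets higher and 1.58% lower. The share of members called is thus near that of the whole array. With the mouse number as a replicate block, 5 members passed, 1 higher and 4 lower (7.35%, beside 4.95% of all tested probe sets): Hsph1, Hsp90ab1 and Hspa4l joined as falls.

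More members had a negative than a positive difference. Of the 68 tested, 42 had a negative (61.8%) and 26 a positive difference, with a median of -0.04 beside -0.0013 over all tested probe sets, of which 50.6% were negative. An unadjusted limma p under 0.05 was found for 20 members, 13 lower and 7 higher, which is 29.4% beside 20.5% of all tested probe sets. The 3 mice of each genotype did not overlap for 21 members, 13 of them lower and 8 higher in heterozygous mice, or 30.9% beside 26.3%. A difference over 0.3 in size was found for 3 members, Hsph1, Dnajb1 and Hspb8, or 4.41% beside 2.39% of all tested probe sets. The median size of the difference was 0.083 over the members and 0.054 over all tested probe sets, and the median SD within a genotype was 0.072 and 0.055.

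**Figure D1:**
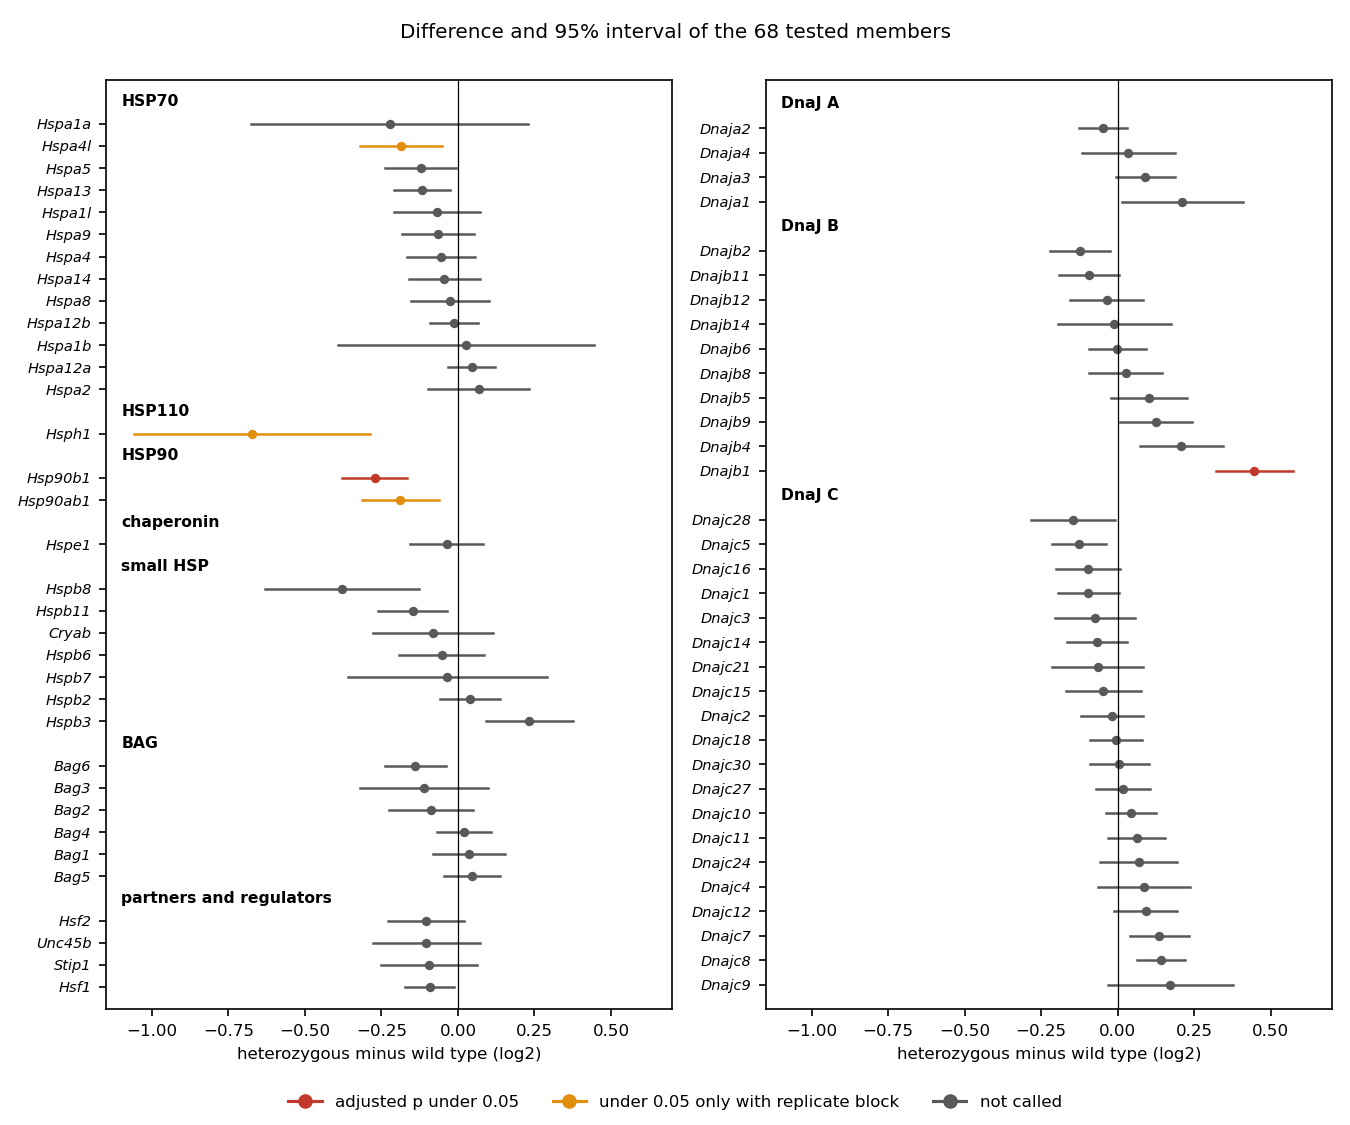
Heterozygous minus wild-type difference on the log2 scale (x axis) with its 95% confidence interval from limma for the 68 tested members, grouped by family. Red marks an adjusted p under 0.05 (Dnajb1 at 0.45 and Hsp90b1 at -0.27), orange an adjusted p under 0.05 with the replicate block only (Hsph1, Hsp90ab1 and Hspa4l), and the other intervals are grey.

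**Figure D2:**
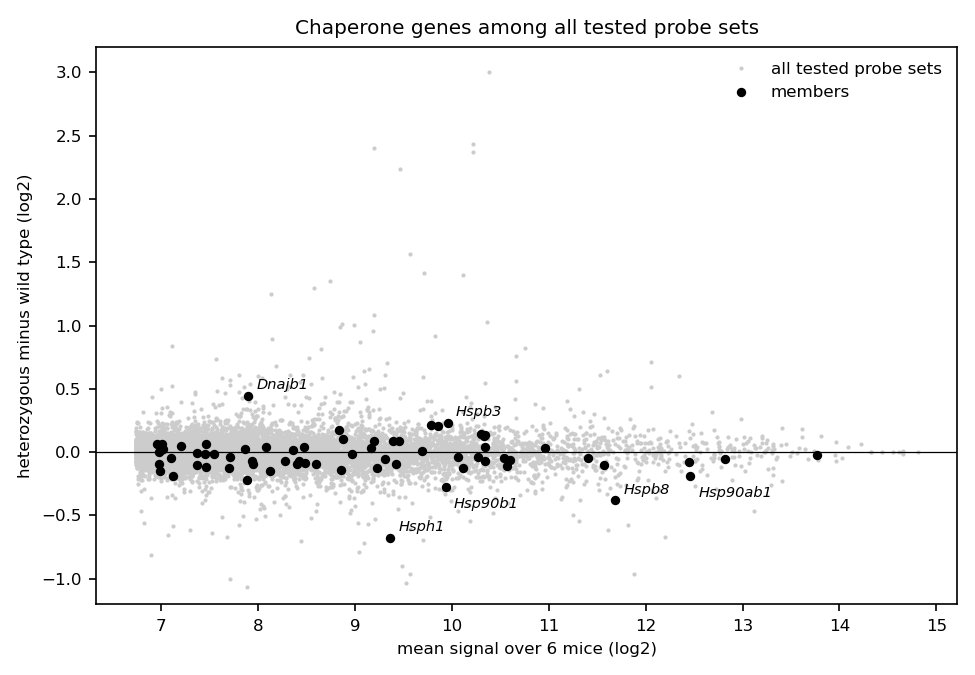
Mean signal over 6 mice (x axis, log2) against heterozygous minus wild-type difference (y axis, log2) for the 11544 tested probe sets (grey) and the 68 tested members (black). The members lie between -0.67 (Hsph1) and 0.45 (Dnajb1), within the cloud of all probe sets, which reaches from -1.06 to 3.00.

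The promoters below are shown because Hsf1 binds repeats of the unit GAA and its complement TTC, and because Hsph1, Dnajb1 and Hspb8 had the largest differences among the members and Hspb3 the largest positive one after Dnajb1. Each is 250 bases before to 50 after a RefSeq gene start on GRCm38.p6, read 5′ to 3′ on the strand of the gene, with GAANNTTC and TTCNNGAA in capitals (2 units, each form the same on both strands, the forms able to share a unit). The windows are chr8:83607925-83608224 (+ strand) for Dnajb1, chr5:149636266-149636565 (- strand) for Hsph1, chr5:116422815-116423114 (- strand) for Hspb8 and chr13:113663627-113663926 (- strand) for Hspb3.
Dnajb1: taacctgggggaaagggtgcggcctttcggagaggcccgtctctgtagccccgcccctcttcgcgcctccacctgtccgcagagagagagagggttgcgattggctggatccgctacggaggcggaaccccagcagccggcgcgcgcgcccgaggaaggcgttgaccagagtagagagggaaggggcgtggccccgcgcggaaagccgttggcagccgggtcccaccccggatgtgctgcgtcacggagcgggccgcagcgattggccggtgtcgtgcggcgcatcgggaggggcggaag
Hsph1: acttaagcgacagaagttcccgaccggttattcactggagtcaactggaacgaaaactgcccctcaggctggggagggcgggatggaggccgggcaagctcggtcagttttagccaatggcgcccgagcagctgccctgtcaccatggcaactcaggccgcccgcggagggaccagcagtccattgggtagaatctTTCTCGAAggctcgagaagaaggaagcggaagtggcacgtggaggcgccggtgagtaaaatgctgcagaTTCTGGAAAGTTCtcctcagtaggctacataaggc
Hspb8: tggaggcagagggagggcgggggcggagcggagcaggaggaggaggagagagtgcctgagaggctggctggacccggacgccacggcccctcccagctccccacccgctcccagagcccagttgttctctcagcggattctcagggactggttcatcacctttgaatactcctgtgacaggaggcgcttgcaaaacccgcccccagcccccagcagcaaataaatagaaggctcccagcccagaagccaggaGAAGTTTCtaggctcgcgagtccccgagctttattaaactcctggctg
Hspb3: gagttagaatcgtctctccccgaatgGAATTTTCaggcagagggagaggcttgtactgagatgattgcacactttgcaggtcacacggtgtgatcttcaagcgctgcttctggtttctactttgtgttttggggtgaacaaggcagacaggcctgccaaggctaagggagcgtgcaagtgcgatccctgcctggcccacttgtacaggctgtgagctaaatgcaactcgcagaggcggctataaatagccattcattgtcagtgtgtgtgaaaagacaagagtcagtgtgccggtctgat

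The Hsph1 window held 3 matches, of which one began 54 bases before the start and the other two, beginning 15 and 20 bases after it, shared a unit and formed a run of 3 units. The Hspb8 window held 1 match, 2 bases after the start, and the Hspb3 window 1, beginning 224 bases before it. The Dnajb1 window shown held none. Its other window and the window of Hsp90b1, the other called member, held none either. This says only that these letters are not in them. A RefSeq window was matched for 61 of the 77 members, and 15 of the 61 (24.6%) held a 2-unit match in at least 1 of their windows, beside 17.0% of 27025 genes. A run of 3 units was found for 3 of the 61 (4.92%), Hsph1, Hspe1 and Dnajb6, beside 0.662% of genes. Among these 3 the differences were -0.67, -0.04 and -0.0024. A match describes letters and shows no binding.

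Among the DnaJ genes, 1 of 34 tested rose, none fell and 33 did not pass. The share called, 2.94%, is near the 3.11% of all tested probe sets (1.53% higher). Dnajb1 measured 8.12, 8.23 and 8.02 in heterozygous mice 1 to 3 and 7.63, 7.68 and 7.72 in wild-type mice 1 to 3. Every heterozygous mouse lay above every wild-type mouse. The means were 8.12 ± 0.10 and 7.68 ± 0.04 (SD, n = 3 each), a 1.36-fold rise with a log2 difference of 0.45 ± 0.05 (SE; 95% confidence interval 0.32 to 0.57; adjusted p = 0.009998). Dnajb1 was called in each of the 6 fits that left out a mouse, with differences of 0.39 to 0.50 and adjusted p of 0.0121 to 0.0416.

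Dnajb4, an HSP40 of the same class, measured 10.02, 9.98 and 9.89 in heterozygous and 9.75, 9.65 and 9.86 in wild-type mice. The groups did not overlap, although heterozygous mouse 3 and wild-type mouse 3 differed by 0.03 only, and the difference of 0.21 ± 0.06 did not pass (adjusted p = 0.0988). Dnaja1, a farnesylated HSP40 of the cytosol, had a difference of the same size, 0.21 ± 0.09, but its groups overlapped (adjusted p = 0.220). Its values were 9.92, 9.95 and 9.82 in heterozygous mice against 9.89, 9.50 and 9.66 in wild-type mice, the wild-type mice being spread more widely. Dnajc8, which is found with the spliceosome, and Dnajc7, which binds both HSP70 and HSP90, had differences of 0.14 ± 0.03 and 0.14 ± 0.04 with no overlap (adjusted p = 0.0652 and 0.121). Dnajc5, the cysteine string protein of secretory vesicles, was at -0.13 ± 0.04 and also did not overlap (adjusted p = 0.111).

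Class A, B and C differed little in their medians, which were 0.06 over 4, 0.01 over 10 and -0.0002 over 20 tested genes. Dnajb6, whose human counterpart is mutated in a limb girdle muscular dystrophy, measured 6.98 ± 0.02 and 6.98 ± 0.06 (difference -0.0024 ± 0.04, 95% interval -0.10 to 0.09; adjusted p = 0.980). Dnajb5, an HSP40 that binds a class II histone deacetylase in heart muscle cells, was at 0.10 ± 0.05 (adjusted p = 0.325) and Dnaja2 of the cytosol at -0.05 ± 0.03 (adjusted p = 0.464). Dnajb2, whose human counterpart is mutated in a distal motor neuropathy, was at -0.12 ± 0.04, with no overlap between the groups (adjusted p = 0.156). The other 8 DnaJ genes were too dim to be tested: Dnajb3, Dnajb7, Dnajb13, Dnajc5b, Dnajc5g, Dnajc6, Dnajc17 and Dnajc22. Among them Dnajb7 measured 6.58, 6.56 and 6.44 in heterozygous and 6.39, 6.40 and 6.43 in wild-type mice, without overlap, and the groups of the others overlapped.

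Of the 13 HSP70 genes none passed without the block, and 10 of the 13 differences were negative (median -0.06, range -0.22 to 0.07). Hspa8, the constitutive HSP70 of the cytosol, measured 13.85, 13.72 and 13.69 in heterozygous mice and 13.82, 13.69 and 13.82 in wild-type mice, a difference of -0.03 ± 0.06 (95% interval -0.15 to 0.10; adjusted p = 0.836). The stress-inducible pair Hspa1a and Hspa1b was set apart by its spread. Hspa1a measured 7.79, 7.75 and 7.78 in heterozygous mice but 8.50, 7.52 and 7.97 in wild-type mice (7.77 ± 0.02 and 7.997 ± 0.49, SD, n = 3 each), and Hspa1b 7.95, 7.87 and 7.83 against 8.31, 7.42 and 7.84. In both genes wild-type mouse 1 was the highest and wild-type mouse 2 the lowest of all 6 mice, and the heterozygous mice lay between them. The differences were -0.22 ± 0.20 and 0.03 ± 0.18 (adjusted p = 0.566 and 0.951). The direction of both rested on single mice. Hspa1a was at 0.03 without wild-type mouse 1 and at -0.46 without wild-type mouse 2, and Hspa1b at 0.26 and -0.19, and also at -0.0088 without heterozygous mouse 1. No call was made in any of these fits. The genes are near-identical copies, so that signal from one may be read by the probes of the other.

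The exchange factors of HSP70 held the member with the largest difference. Hsph1, the HSP110 of the cytosol, measured 9.37, 8.85 and 8.85 in heterozygous mice 1 to 3 and 10.002, 9.43 and 9.67 in wild-type mice 1 to 3. All heterozygous mice were below all wild-type mice, but mouse 1 was the highest of its genotype in both groups, and heterozygous mouse 1 came close to wild-type mouse 2. The means of 9.02 ± 0.30 and 9.70 ± 0.29 (SD, n = 3 each) differed by -0.67 ± 0.17, or 37.3% lower, with a 95% interval of -1.06 to -0.29, and the difference did not pass (adjusted p = 0.0707). Compared within mouse numbers, the differences were -0.63, -0.57 and -0.82, and with the replicate block Hsph1 fell (-0.67 ± 0.05, adjusted p = 0.00222). The labels do not say what a mouse number shares, and same-numbered mice deviated together with r of 0.129 to 0.234 only. With heterozygous mouse 1 left out, its difference of -0.85 passed (adjusted p = 0.0197). Hsph1 passed in no other fit without 1 mouse (adjusted p up to 0.197).

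Hspa4l, grouped with HSP70 by its symbol but an exchange factor of the HSP110 type, showed a smaller difference. It measured 7.11, 6.97 and 7.03 in heterozygous mice and 7.32, 7.12 and 7.22 in wild-type mice, and mouse 1 was again the highest and mouse 2 the lowest of both genotypes. The groups did not overlap, heterozygous mouse 1 being just below wild-type mouse 2. The difference was -0.19 ± 0.06 (adjusted p = 0.124), and the block brought its adjusted p to 0.0368. Hspa4, the third HSP110-type gene, was at -0.06 ± 0.05 with overlapping groups (adjusted p = 0.549).

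None of the 6 BAG genes passed, and their differences ran from -0.14 to 0.04. Bag3, which works with Hspb8 in the removal of damaged sarcomere proteins by autophagy, measured 10.72, 10.35 and 10.48 in heterozygous mice and 10.73, 10.52 and 10.64 in wild-type mice (difference -0.11 ± 0.09, adjusted p = 0.531). The groups overlapped, heterozygous mouse 1 lying beside wild-type mouse 1 and above the other mice. Bag6, a chaperone for membrane proteins on their way to the endoplasmic reticulum, had the smallest p of the family, at -0.14 ± 0.04 with no overlap (adjusted p = 0.123). Bag1, which links HSP70 to the proteasome, and Bag2, an inhibitor of the ubiquitin ligase CHIP, were at 0.04 ± 0.05 and -0.09 ± 0.06 (adjusted p = 0.732 and 0.445).

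**Figure D3:**
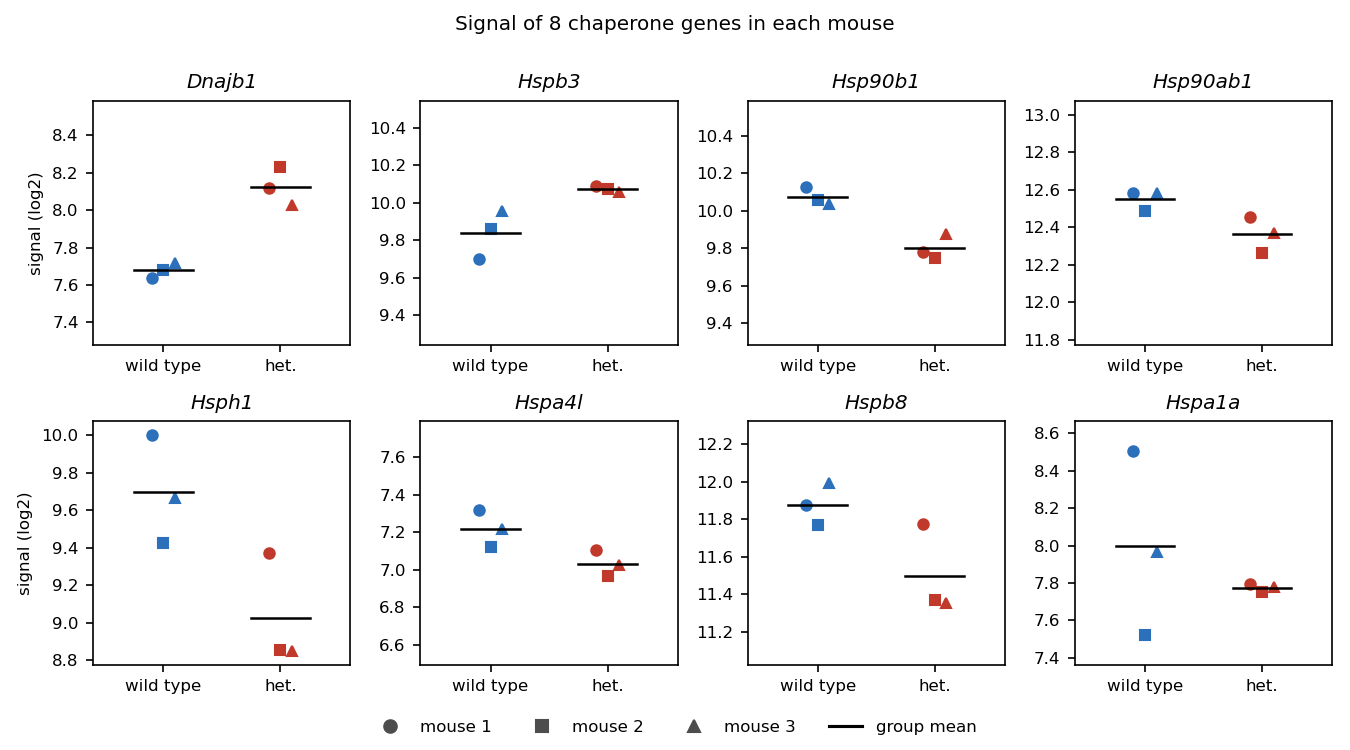
Signal (y axis, log2) of 8 genes in each wild-type (blue) and heterozygous (red) mouse, with a symbol for each mouse number and a line at the group mean; every panel spans the same height. Dnajb1 and Hspb3 lie higher in all heterozygous mice, Hsp90b1, Hsp90ab1, Hsph1 and Hspa4l lower, the groups of Hspb8 touch at heterozygous mouse 1 and wild-type mouse 2, and Hspa1a is spread from 7.52 to 8.50 in wild-type mice.

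Of the 2 HSP90 genes measured, Hsp90b1 passed the test and Hsp90ab1 did not pass without the block. Both had lower signals in every heterozygous than in every wild-type mouse. Groups without overlap, in either direction, were found for 26.3% of all tested probe sets. Hsp90b1 (also known as Grp94), which folds integrins and other secreted and membrane proteins in the endoplasmic reticulum, measured 9.78, 9.75 and 9.88 in heterozygous and 10.12, 10.05 and 10.04 in wild-type mice. The groups stood apart, with means of 9.80 ± 0.07 and 10.07 ± 0.05 (SD, n = 3 each). The fall was 1.21-fold, a log2 difference of -0.27 ± 0.05 (95% interval -0.38 to -0.17; adjusted p = 0.0245). The call was lost, with differences of -0.29 to -0.25, without heterozygous mouse 2 (adjusted p = 0.0805) and without wild-type mouse 1 (0.0845), 2 (0.0723) or 3 (0.0556). Hsp90ab1, the constitutive HSP90 of the cytosol, measured 12.46, 12.26 and 12.37 against 12.58, 12.49 and 12.58, again with no overlap but with heterozygous mouse 1 close to wild-type mouse 2. Its difference was -0.19 ± 0.06 (adjusted p = 0.104), with an adjusted p of 0.0437 under the block. Without heterozygous mouse 1 it was -0.24 and passed (adjusted p = 0.0469). Hsp90ab1 passed in no other fit without 1 mouse (adjusted p up to 0.250).

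The endoplasmic reticulum also holds Hspa5 (BiP), its HSP70, Hspa13, a microsomal relative, and the DnaJ proteins Dnajb9, Dnajb11, Dnajc1, Dnajc3 and Dnajc10. These genes were put together with Hsp90b1 after their values had been seen, and the list does not take in every member found there. Of the 8, Hsp90b1 fell (12.5%, beside 3.11% of all tested probe sets called) and 7 did not pass. Of the differences 6 were negative (75%, beside 50.6%), with a median of -0.10 beside -0.0013. As the list was made around a called gene, these shares are not a result about the endoplasmic reticulum. Hspa5 measured 10.06, 9.99 and 10.11 in heterozygous and 10.25, 10.17 and 10.10 in wild-type mice, with wild-type mouse 3 at the level of heterozygous mouse 3 (-0.12 ± 0.05, adjusted p = 0.226). Hspa13 was at -0.12 ± 0.04 with no overlap (adjusted p = 0.144), and Dnajb11, the co-chaperone of BiP for secreted proteins, at -0.09 ± 0.04 (adjusted p = 0.264). Dnajb9, which acts on BiP and on the stress sensor Ire1, was at 0.13 ± 0.05 (adjusted p = 0.217).

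Of the 7 small heat shock protein genes tested none passed, and the family held one of the larger lower and one of the larger higher differences. Hspb8 measured 11.77, 11.37 and 11.35 in heterozygous and 11.87, 11.77 and 11.99 in wild-type mice. Heterozygous mice 2 and 3 were far below the wild-type mice, while heterozygous mouse 1 was level with wild-type mouse 2. The difference was -0.38 ± 0.11 (23.2% lower, 95% interval -0.63 to -0.13, adjusted p = 0.102). Without heterozygous mouse 1 it was -0.52 and passed (adjusted p = 0.00835). Hspb8 passed in no other fit without 1 mouse (adjusted p up to 0.259). Hspb3, a small heat shock protein of muscle that pairs with Hspb2, measured 10.09, 10.07 and 10.06 in heterozygous mice, a narrow range, against 9.70, 9.86 and 9.96. All heterozygous mice were above, and the difference of 0.23 ± 0.06 did not pass (adjusted p = 0.0838). Hspb2 itself was at 0.04 ± 0.04 (95% interval -0.06 to 0.14; adjusted p = 0.642).

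The other small heat shock proteins of muscle had overlapping groups. Cryab, alpha-B crystallin, which binds desmin and titin at the Z-disc and I-band, measured 12.54, 12.29 and 12.38 in heterozygous and 12.61, 12.31 and 12.53 in wild-type mice (-0.08 ± 0.09, adjusted p = 0.640). Hspb6 and Hspb7, both abundant in heart and skeletal muscle, were at -0.05 ± 0.06 and -0.03 ± 0.14 (adjusted p = 0.663 and 0.917), and Hspb7 was spread from 9.95 to 10.51 in wild-type mice. Hspb11, which despite its symbol is a subunit of the ciliary transport machinery, was at -0.15 ± 0.05 with no overlap (adjusted p = 0.140). Hspb9, known from testis, was too dim to be tested.

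Hspe1, the mitochondrial partner of the chaperonin HSP60, was at -0.04 ± 0.05 with overlapping groups (adjusted p = 0.734). Neither it nor 5 other mitochondrial members, Hspa9, Dnaja3, Dnajc11, Dnajc15 and Dnajc30, passed, and 3 of the 6 differences were negative (median -0.02, range -0.07 to 0.09). Dnaja3, an HSP40 of the mitochondrial matrix, was at 0.09 ± 0.04 (adjusted p = 0.267), and Dnajc15, a DnaJ protein of the inner membrane, at -0.05 ± 0.05 (adjusted p = 0.658).

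The 4 partners and regulators all had negative differences between -0.10 and -0.09, and none passed. Unc45b, the co-chaperone that folds the myosin head with HSP90, measured 11.65, 11.36 and 11.53 in heterozygous and 11.72, 11.54 and 11.59 in wild-type mice, with overlapping groups (-0.10 ± 0.08, 95% interval -0.28 to 0.07; adjusted p = 0.485). Stip1, which links HSP70 to HSP90, was at -0.09 ± 0.07 (adjusted p = 0.476). Hsf1, the master regulator of the heat shock response, measured 8.38, 8.35 and 8.33 against 8.45, 8.43 and 8.45. Its groups were narrow and did not overlap, and the difference of -0.09 ± 0.03 did not pass (adjusted p = 0.189). Hsf2, a second heat shock factor, was at -0.10 ± 0.05 (adjusted p = 0.322).

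Chaperone genes outside the rule also had more negative than positive differences. Of 46 tested, 2 fell, none rose and 44 did not pass. The calls made up 4.35% of the list, beside 3.11% of all tested probe sets (1.58% lower). In the list 31 differences were negative (67.4%, beside 50.6% of all tested probe sets; median -0.05). The falls were St13, the HSP70-interacting protein Hip (-0.22 ± 0.04, adjusted p = 0.0321) and Tomm70a, the mitochondrial import receptor that takes clients from HSP70 and HSP90 (-0.18 ± 0.04, adjusted p = 0.0487, but 0.0613 under the block). With the mouse number in the fit, the endoplasmic reticulum chaperone gene Calr (-0.23 ± 0.05, adjusted p = 0.0531, against 0.0266 with it) and Ahsa2, named for its likeness to an activator of HSP90 (-0.31 ± 0.07, adjusted p = 0.0541, against 0.0160 with it), fell as well. Under the block 3 of the 46 passed, St13, Calr and Ahsa2, which is 6.52% beside 4.95% of all tested probe sets. The calls of St13 and Tomm70a did not hold in every fit without 1 mouse. Their differences stayed at -0.25 to -0.20 and at -0.20 to -0.16. That of St13 held without heterozygous mouse 1 or wild-type mouse 2 only (adjusted p up to 0.104), and that of Tomm70a in none of these 6 fits (0.0792 to 0.141). By roles assigned after the values had been seen, all 8 endoplasmic reticulum genes of this list had negative differences, with a median of -0.10. Of 9 HSP90 co-chaperones 7 were negative (median -0.10) and of 7 subunits of the cytosolic CCT chaperonin 5 were (median -0.04), and none of either passed without the block.

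The number of falls changed with the mouse left out. Leaving out heterozygous mouse 1 gave 4 members called lower (Hsph1, Hspb8, Hsp90ab1 and Hsp90b1), and leaving out heterozygous mouse 3 gave 1. Leaving out heterozygous mouse 2 or wild-type mouse 1, 2 or 3 gave 0. The rise of Dnajb1 was the single higher call in all of these fits. The share of all probe sets called in these fits is not given here, so the counts have no such comparison.

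**Figure D4:**
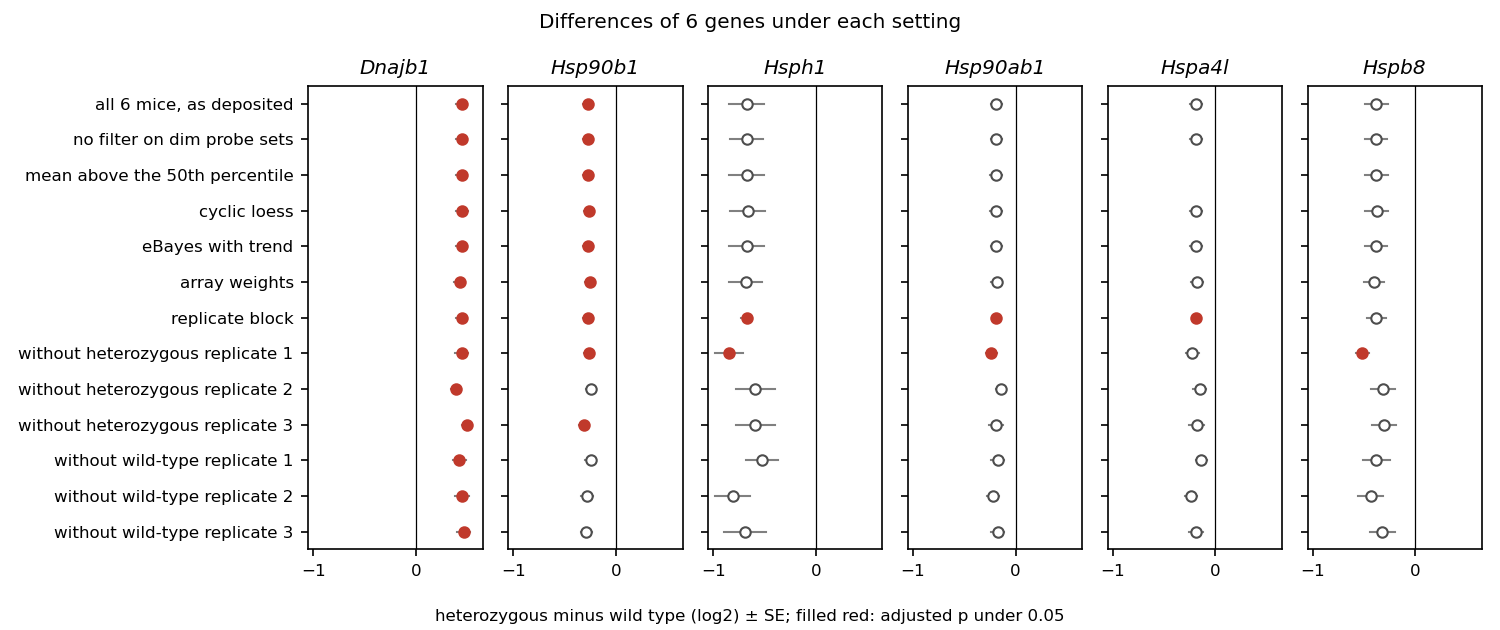
Heterozygous minus wild-type difference (x axis, log2) ± SE of 6 genes in the fit of all 6 mice and under 12 other settings (y axis), filled red where the adjusted p is under 0.05. Dnajb1 is filled throughout, Hsp90b1 loses the call without heterozygous mouse 2 or any wild-type mouse, Hsph1 and Hsp90ab1 are filled with the replicate block and without heterozygous mouse 1, and Hspa4l, not tested above the 50th percentile, is filled with the block.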

How the data were processed

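The deposited values are log2 signals, 1 column per array. Per the labels' protocols, Trizol and a Qiagen kit gave the RNA and the standard Affymetrix procedure gave biotin-labelled cRNA. The sorted columns were identical, as quantile normalization leaves them, and a change common to all transcripts is therefore not visible. The sources used here do not name the software or genome build behind them. Probe sets with a mean above the 30th percentile (6.74) entered lmFit and eBayes of limma 3.58.1 (R 4.3.3), with Benjamini-Hochberg adjustment over 11544 probe sets, a threshold of 0.05 and 95% intervals; the fit was tested on simulated data. Members, lists, roles and tests were chosen with earlier results of these data known, including the named genes: every call with or without the block, the 2 smallest p and the highest mean of each family, all of the small families, and genes with a role in muscle. The members Dnajc7, Dnajb2, Hspa1a, Hspa1b, Hspa4, Hspa5 and Dnajb11, were named after their values were seen. Cross-hybridisation was not assessed. Of 50 chaperone genes listed outside the rule, 47 had a row; a further one is not reported here. Mice 1, 2 and 3 of both genotypes deviated together from the group means (r = 0.187, 0.234 and 0.129, each above the limit of 0.1), so the number was also fitted as a block. The r of mice with different numbers is not given here, and the labels do not say what a number shares.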

Additional observations from a re-analysis of the deposited data

How the results depend on the processing

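The alternatives were no filter, a filter at the 50th percentile, cyclic loess, a variance trend, array weights, the replicate block and leaving out each mouse. The count of members called higher was 1 in all of them, and that of members called lower was 4 with the replicate block and 0 to 4 over the fits without 1 mouse. The median of the BAG genes moved to -0.088 with the stricter filter, which tests fewer genes, and that of the small heat shock proteins ranged from -0.14 to 0.011 over the fits without 1 mouse. Among 40 named members, 33 by the rule and 7 after their values were seen, the direction turned, with no call on either side, without 1 mouse for Bag1 (-0.011 to 0.082), Dnajb6 (-0.035 to 0.015), Hspa1a (-0.46 to 0.030), Hspa1b (-0.19 to 0.26), Hspa8 (-0.074 to 0.0049), Hspb6 (-0.10 to 0.011) and Hspb7 (-0.20 to 0.078), and for Hspb7 also with array weights (9.5e-05). The cause was not tested. With the replicate block 3 of the 40 were gained as calls, and it changed no other call among them. With 3 mice per genotype the intervals of most members leave differences of about 0.1 undecided.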
